A study of Mus musculus with 12 samples.

Results

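The genes described here encode AMPA receptor subunits and the proteins that travel with them, measured in the hippocampus of mice after seizures set off with kainic acid (KA). The 10 genes are Gria1, Gria2, Gria3, Gria4, Cacng2, Cacng3, Cacng8, Cnih2, Cnih3 and Grip1, found by their symbol in the array's probe annotation. They were all present, through 19 of the 45037 probe sets that are not array controls, and they are 10 of 17097 annotated genes. The tissue was the whole hippocampus on the injected side of the brain, hybridised to 12 Affymetrix Mouse MG-430 PM array strips, 3 for each of 4 groups. The groups were mice at 8 h after intra-amygdala KA (0.3 µg in 0.2 µl), control mice at 8 h after 0.2 µl of vehicle, mice at 14 d after the same dose of KA, and vehicle controls at 14 d. At 40 min after KA these mice were also given intraperitoneal lorazepam (6 mg/kg), a seizure-stopping benzodiazepine, and whether the controls received it is not stated. Strain, age, sex and the number of animals behind each array are not given in the labels, so every p-value here reflects array-to-array spread, which may be technical. The injection went into the amygdala and not into the hippocampus, and the labels name no genetic change in any group.

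AMPA receptors are ion channels built from Gria subunits that carry most fast excitatory signals between neurons, and the mix of subunits sets how the channel conducts. The Gria2 subunit, once its messenger RNA is edited, keeps calcium out of the channel. The Cacng genes here encode transmembrane AMPA receptor regulatory proteins (TARPs), which bring receptors to the synapse and slow their closing, and the Cnih genes encode cornichon proteins, which help receptors leave the endoplasmic reticulum and also slow their closing. Grip1 is a scaffold protein that binds the tails of receptor subunits. Kainate itself opens AMPA receptors as well as kainate receptors.

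The filter on low values kept 13853 of the 17097 annotated genes. It kept 10 of 10 markers of neurons in general, 6 of 7 of dentate granule cells and 6 of 9 of CA pyramidal cells. Of the dentate granule list 6 genes were annotated, and of the CA pyramidal list 8. Beside the share of all genes kept, these counts do not test the hippocampal label. All arrays had similar medians, between 4.90 and 4.95 on the log2 scale, and arrays of 1 group correlated at 0.989 to 0.997. Xist, the transcript of the inactive X chromosome, read 7.39 to 8.71 on the 3 KA arrays at 8 h, against 4.20 to 4.67 on the other 9 arrays. The Y-linked gene Eif2s3y read 5.57 to 6.83 on the 3 KA arrays at 8 h and 7.47 to 8.09 on the other 9, and Kdm5d read 5.07 to 6.10 against 6.43 to 6.95. The KA arrays at 8 h therefore differ from their controls in sex-linked transcripts as well as in KA, and the effects of these cannot be told apart. A separate time entry in the labels reads 8, 9 and 10 h for replicates 1 to 3 of the controls titled 8 h. It runs on as 11, 12 and 13 h for replicates 1 to 3 of the KA arrays titled 8 h. The arrays titled 14 d have no such entry, and the titles were followed.

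At 8 h, 4 of the 10 genes changed, in opposite directions. The TARP gene Cacng3 rose 1.79-fold and the cornichon gene Cnih3 rose 1.49-fold, while the subunit genes Gria4 and Gria3 fell 1.43-fold and 1.22-fold. A change means an adjusted p under 0.05 in limma over the 13853 genes tested, and 17.5% of these passed it at 8 h, 7.92% higher and 9.55% lower (1097 and 1323 genes, but 1399 and 1215 under cyclic loess scaling). With 4 of 10, 2 higher and 2 lower, the share among the receptor genes was above that background, over a small number of genes. The genes were chosen with earlier results of these data known, so this share is no independent test. The values of KA and control arrays did not overlap for 8 of the 10 genes, 5 lower and 3 higher. Over all genes tested the share was 33.8% in either direction, and it was not counted by direction. The median log2 change of the 10 genes was -0.19, against -0.017 over all genes. The plot of log2 intensity by array shows each gene with its spread.

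**Figure D1:**
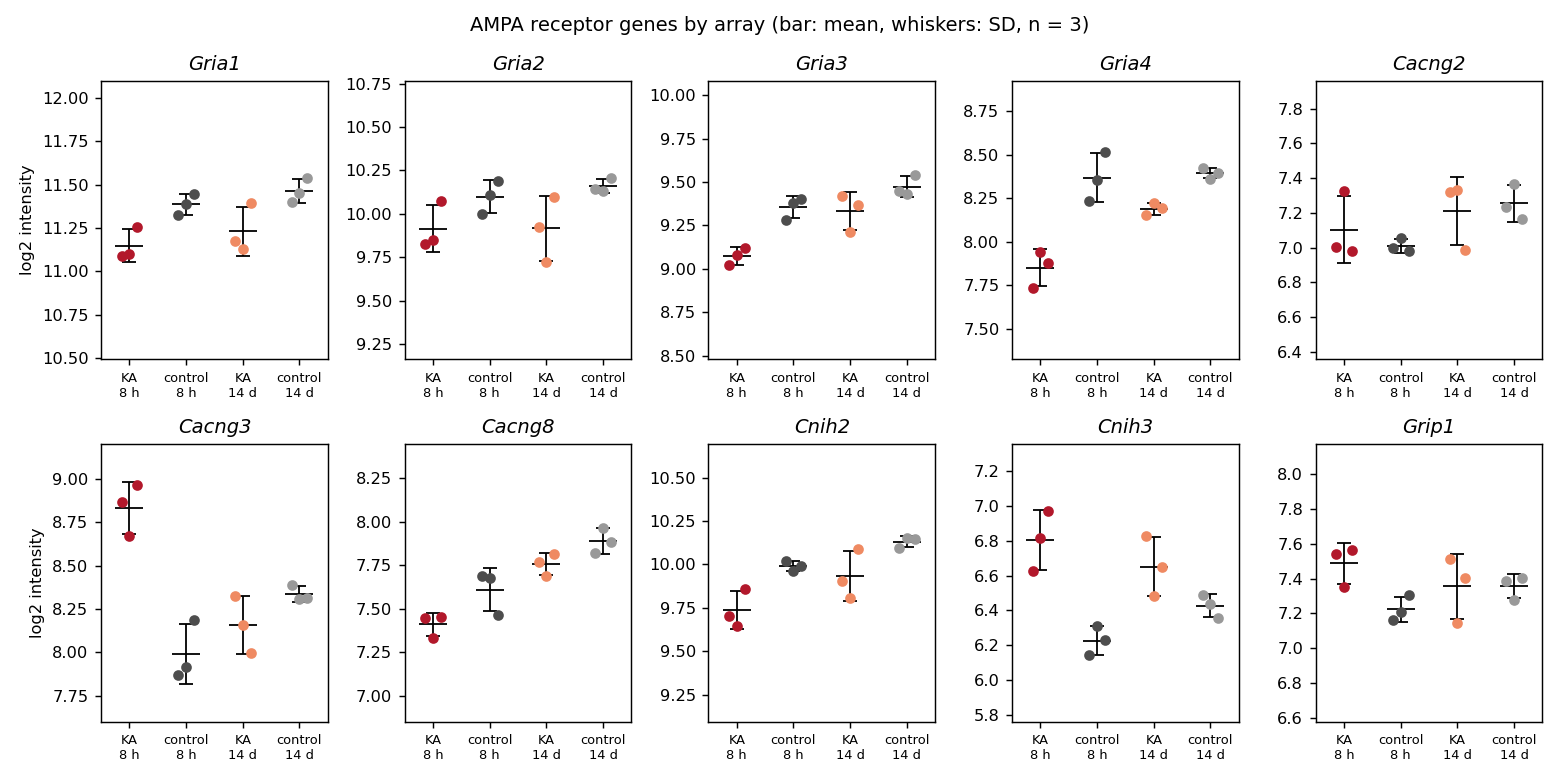
Log2 intensity of the 10 AMPA receptor genes (y axis; every panel spans the same range of log2 units) on each of the 12 arrays, with KA left of control at 8 h and at 14 d (x axis); points are arrays, the long dash is the mean and the whiskers the SD of 3 arrays. Cacng3 on the KA arrays at 8 h lies between 8.67 and 8.96, above all 9 other arrays, and Gria4 on the KA arrays at 8 h lies between 7.73 and 7.94, below all 9 others.

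The stretches just upstream of Cnih3 and Gria4 are shown because these genes passed the test at 8 h in opposite directions and with large changes, and were picked for it. Each is the 250 bases before the gene's start in RefSeq (GRCm38.p6), written 5′ to 3′ along the gene's own strand. Capitals mark the only match to a motif that was searched.
Cnih3 (chr1:181352378-181352627, plus strand): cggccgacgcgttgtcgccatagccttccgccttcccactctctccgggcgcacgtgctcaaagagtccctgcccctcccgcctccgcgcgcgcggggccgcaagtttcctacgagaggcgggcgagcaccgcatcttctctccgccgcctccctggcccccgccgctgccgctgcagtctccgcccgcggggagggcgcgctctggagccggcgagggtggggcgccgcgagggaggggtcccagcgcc
Gria4 (chr9:4796235-4796484, minus strand): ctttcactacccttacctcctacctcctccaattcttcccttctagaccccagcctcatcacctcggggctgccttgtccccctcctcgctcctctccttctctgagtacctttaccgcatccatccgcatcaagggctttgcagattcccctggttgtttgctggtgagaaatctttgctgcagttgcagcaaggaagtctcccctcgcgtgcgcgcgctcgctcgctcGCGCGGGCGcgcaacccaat
Of the 9 genes looked up, 7 had an entry in the promoter table, and Grip1 had 3 entries. Motifs bound by factors that neuronal activity switches on were searched on both strands, namely the CRE core TGACG, the full CRE TGACGTCA, which contains TGACG, the AP-1 site TGANTCA and the Egr site GCGNGGGCG. Gria4 held the Egr letters at -20, counted from the start, and 4.7% of 32851 promoters of the same length held them. Of the 3 Grip1 entries, 1 held TGACG at -61, as did 17.8% of all promoters. The full CRE, present in 1.5% of promoters, and the AP-1 letters, present in 6.7%, were not in the windows of these 7 genes. A match is only a string of letters, and no binding was measured.

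Gria4, whose subunit conducts rapidly and is known from interneurons, had the largest fall among the subunits. It read 7.73, 7.94 and 7.88 on the KA arrays at 8 h, against 8.24, 8.35 and 8.52 in controls. The KA arrays were all below the lowest control, a log2 change of -0.52 ± 0.09 (SE, n = 3 each, limma adjusted p = 0.000673). The second Gria4 probe set above the filter fell as well, by 0.48 ± 0.09 (adjusted p = 0.00218 over all probe sets), and the third lay below background on all 12 arrays. In the same comparison the interneuron markers Pvalb and Erbb4 fell by 0.55 and 0.52 on the log2 scale, Sst rose by 0.72, and 5 of the list's 8 genes did not pass. The summed level of the interneuron list spanned 11.55 to 11.76 on KA arrays and 11.58 to 11.77 in controls, and the part of these cells in the fall of Gria4 was not tested. In whole tissue, fewer cells of a type and less RNA per cell cannot be told apart.

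Gria3, an X-linked subunit gene, read 9.02, 9.08 and 9.12 on the KA arrays at 8 h, against 9.28, 9.38 and 9.40 in controls. The groups did not overlap, and Gria3 fell by 0.28 ± 0.08 on the log2 scale (SE, n = 3 each, adjusted p = 0.0249). This call depended on single arrays. The adjusted p was 0.0858 without control 8 h replicate 2, 0.0947 without control 8 h replicate 3, 0.0916 without KA 8 h replicate 1 and 0.053 without KA 8 h replicate 2, with log2 changes of -0.28 to -0.25. The other Gria3 probe set changed by -0.39 ± 0.15 (adjusted p = 0.0852). The difference in Xist and in Y-linked transcripts lies between the same arrays, and its part in the Gria3 value was not tested.

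Gria1, whose subunit is abundant in hippocampal pyramidal cells and is moved to synapses in long-term potentiation, read 11.09, 11.10 and 11.26 on the KA arrays at 8 h and 11.33, 11.39 and 11.45 in controls. The groups did not overlap, but the log2 change of -0.24 ± 0.09 missed the threshold (adjusted p = 0.0802). Arrays that share a replicate number deviated together at 8 h, and with the replicate number as a block the adjusted p of Gria1 was 0.0267. The dimmer Gria1 probe set fell by 0.37 ± 0.12 (adjusted p = 0.047 over all probe sets).

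Gria2 read 9.83, 9.85 and 10.07 on the KA arrays at 8 h and 10.00, 10.11 and 10.19 in controls. The highest KA array lay above the lowest control, and the log2 change was -0.18 ± 0.10 (adjusted p = 0.259, 95% interval -0.40 to 0.03). Its other probe sets gave -0.26 ± 0.12 (adjusted p = 0.172) and a fall of 0.41 ± 0.13 (adjusted p = 0.0385). In every group, the third array was the highest of its 3 for both Gria1 and Gria2. All 4 subunit genes had a negative log2 change at 8 h under each processing alternative tried, scalings included.

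Among the TARP genes, Cacng3 stood out. It read 8.87, 8.67 and 8.96 on the KA arrays at 8 h, against 7.87, 7.91 and 8.19 in controls. The lowest KA array was above the highest control, and the log2 change was 0.84 ± 0.11 (SE, n = 3 each, adjusted p = 6.15e-05). Cacng8, the TARP typical of the hippocampus, read 7.44, 7.33 and 7.45 on KA arrays and 7.69, 7.67 and 7.46 in controls. The groups nearly touched but did not overlap, with a log2 change of -0.20 ± 0.08 (adjusted p = 0.131). The dimmer Cacng8 probe set gave -0.098 ± 0.084 (limma adjusted p = 0.511 over all probe sets). Cacng2, known as stargazin, whose loss gives the stargazer mouse its seizures and unsteady gait, read 7.01, 7.33 and 6.98 on KA arrays and 7.00, 7.06 and 6.98 in controls. These groups overlapped, its probe sets differed in sign (0.09 ± 0.11 and -0.15 ± 0.10), and neither passed the test (adjusted p = 0.67 and 0.363).

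The cornichon genes lay on opposite sides of 0. Cnih3 read 6.63, 6.82 and 6.97 on the KA arrays at 8 h, against 6.14, 6.31 and 6.23 in controls. There was no overlap, and Cnih3 rose by 0.58 ± 0.10 (SE, n = 3 each, adjusted p = 0.00115). It was also the gene closest to background, at least 1.68 log2 units above the array's GC-rich control probe sets on each array. Cnih2 read 9.70, 9.65 and 9.86 on KA arrays and 10.02, 9.96 and 9.99 in controls. All 3 KA arrays were lower, with a log2 change of -0.25 ± 0.09 (adjusted p = 0.0573). With the replicate block the limma adjusted p of Cnih2 was 0.0287 over all arrays and 0.0411 over the 8 h arrays alone. Cacng3, Cnih2 and Cnih3 had 1 probe set each, so no second probe set bears on them.

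The scaffold gene Grip1 read 7.54, 7.35 and 7.57 on the KA arrays at 8 h and 7.16, 7.21 and 7.30 in controls. The groups did not overlap, and the log2 change of 0.26 ± 0.10 missed the threshold (adjusted p = 0.0821). The dimmer Grip1 probe set, above background on 5 of the 12 arrays, gave 0.29 ± 0.13 (limma adjusted p = 0.137 over all probe sets). With the replicate block Grip1 passed, at an adjusted p of 0.029 over all arrays and 0.0374 over the 8 h arrays alone. The block thus brought the number of changed genes at 8 h to 7 of 10, with Gria1, Cnih2 and Grip1 added, and the number over all genes to 3134 of 13853 (22.6%). Over all alternatives the adjusted p ran from 0.02 to 0.228 for Gria1, from 0.0149 to 0.174 for Cnih2, from 0.0218 to 0.217 for Grip1 and from 0.00578 to 0.0947 for Gria3. Leaving out single arrays brought in Gria1 without KA 14 d replicate 3 (adjusted p = 0.0474) and Grip1 without KA 8 h replicate 2 or KA 14 d replicate 2 (0.0499 and 0.0353). Cnih2 came in without KA 8 h replicate 3 or KA 14 d replicate 2 or 3 (adjusted p = 0.0348, 0.0354 and 0.0332). Cacng3, Cnih3 and Gria4 passed under every alternative tried at 8 h, leaving out any single array included.

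**Figure D2:**
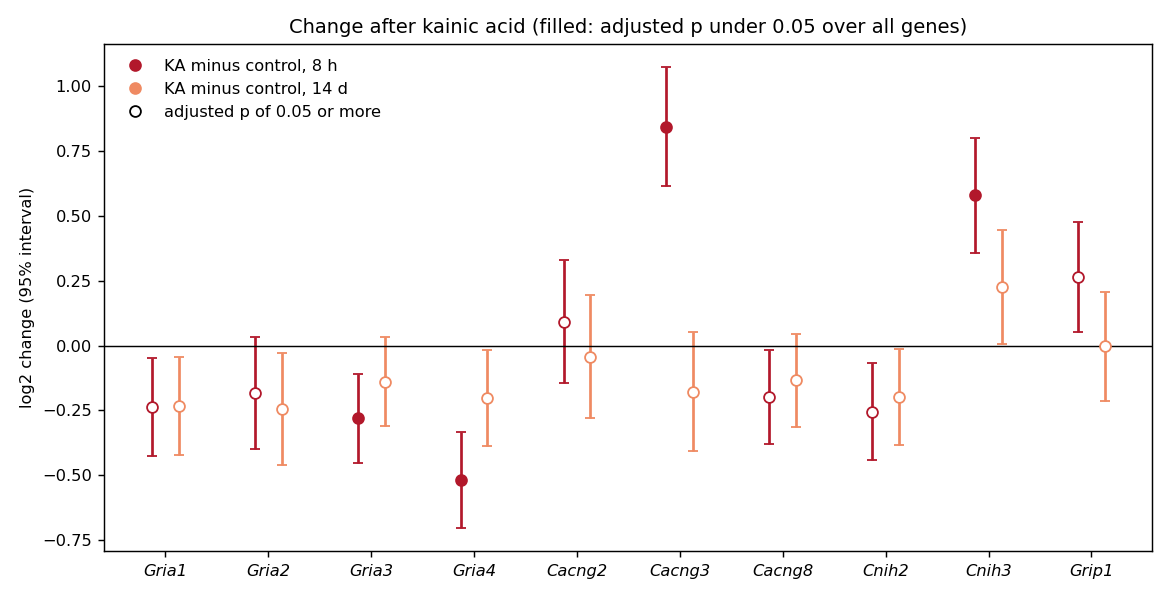
Log2 change, KA minus control, of the 10 genes (x axis) at 8 h and at 14 d (y axis), with 95% intervals from limma; filled points had an adjusted p under 0.05 over all genes, open points did not. At 8 h Cacng3 and Cnih3 lie above 0 and Gria3 and Gria4 below it as filled points, and at 14 d all 10 points are open.

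**Figure D3:**
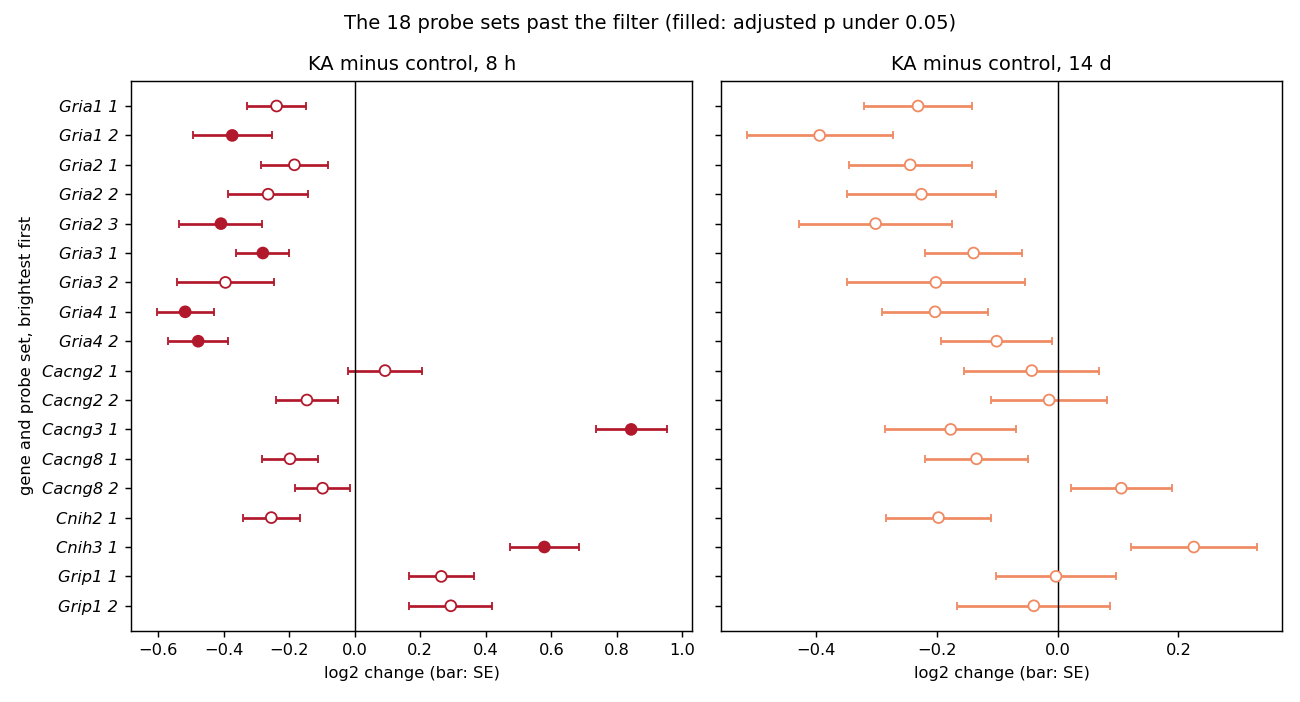
Log2 change, KA minus control, with its SE (x axis) of each of the 18 probe sets above the filter (y axis, genes in order and the brightest probe set first) at 8 h and at 14 d; filled points had an adjusted p under 0.05 over 22392 probe sets. At 8 h, 5 probe sets fell, all of Gria genes, and 2 rose, those of Cacng3 and Cnih3.

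Read by probe set, 5 of the 18 above the filter fell and 2 rose at 8 h, beside 16.4% changed among all 22392 probe sets. All 9 tested probe sets of the Gria genes had a negative log2 change, from -0.52 to -0.18. Probe sets of 1 gene share its transcript and are not independent measurements.

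Whether related genes moved apart was measured within each array, as the difference of their log2 values, which has no meaning as a level because probe sets differ in brightness. Gria2 minus Gria4 was 2.09, 1.91 and 2.19 on the KA arrays at 8 h, against 1.76, 1.76 and 1.67 in controls. The arrays did not overlap, and the difference was greater by 0.33 (exact two-sided permutation p = 0.1, the smallest that 3 against 3 arrays can give; adjusted p = 0.4 over 6 comparisons). With each gene's probe sets averaged, it was greater by 0.03. That average takes in the Gria4 probe set below background. It also takes in the dimmer Gria2 probe sets, which changed by -0.26 and -0.41, against -0.18 for the brightest. Their parts in the smaller shift were not tested apart. Gria2 moved by 0.05 against Gria1 and by 0.10 against Gria3 at 8 h, with overlapping arrays (exact permutation p = 0.2 each, n = 3 each). At 14 d the same differences changed by -0.01, -0.11 and -0.04 for Gria1, Gria3 and Gria4 (exact permutation p = 1, 0.4 and 0.9).

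The TARP and cornichon genes were compared in the same way, after their values had been seen. Cacng3 minus Cacng8 was 1.42, 1.34 and 1.51 on the KA arrays at 8 h, against 0.19, 0.24 and 0.72 in controls, a shift of 1.04 with no overlap. Cacng3 minus Cacng2 was 1.86, 1.34 and 1.98 on KA arrays and 0.87, 0.86 and 1.21 in controls, a shift of 0.75. Cnih3 minus Cnih2 shifted by 0.83 at 8 h and by 0.42 at 14 d, with no overlap at either time. Each of these 4 shifts had the smallest exact permutation p that n = 3 allows, 0.1 (adjusted p = 0.15 over 6). As the pairs were formed from values already seen, these p-values do not test whether related genes moved apart. At 14 d the Cacng3 differences changed by -0.04 against Cacng8 and by -0.13 against Cacng2 (exact permutation p = 0.8 and 0.3).

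**Figure D4:**
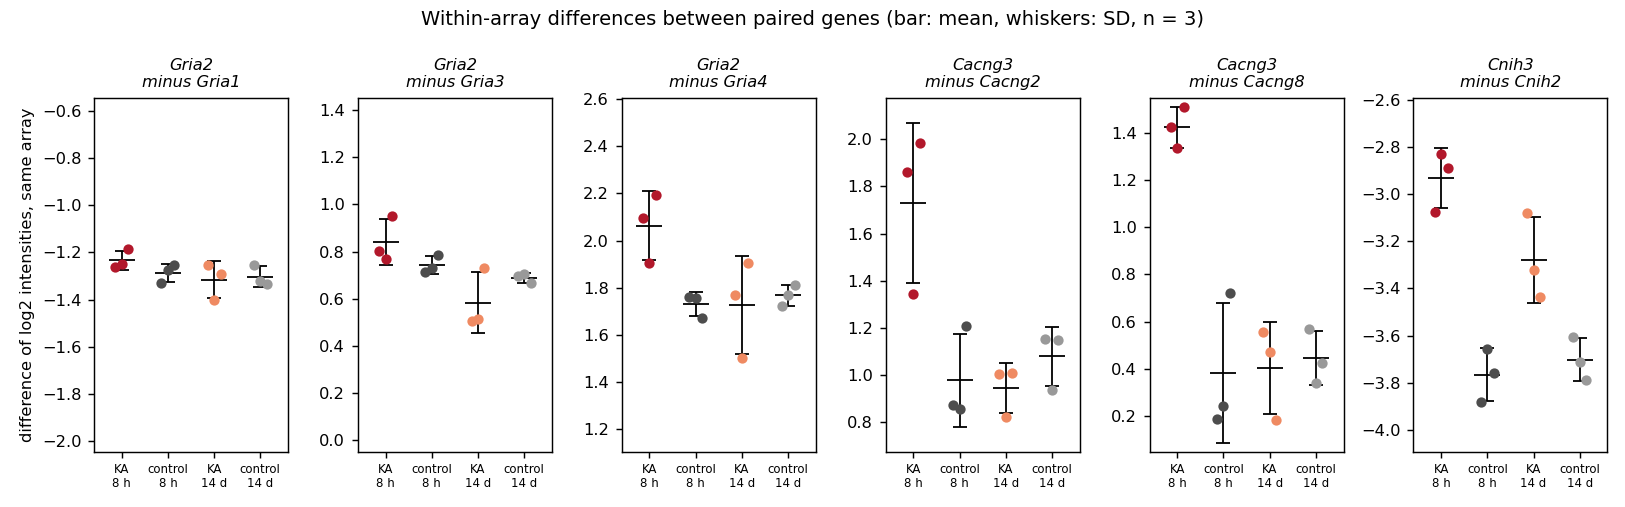
Difference of log2 intensities between paired genes on the same array (y axis; every panel spans the same range of log2 units), with KA left of control at 8 h and at 14 d (x axis); points are arrays, dashes the mean and whiskers the SD of 3 arrays. In the 3 right panels and for Gria2 minus Gria4, the KA arrays at 8 h lie above all control arrays at 8 h.

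At 14 d none of the 10 genes passed the test, beside 2.56% of all genes tested. With limma, 5 genes had an unadjusted p under 0.05, namely Gria1, Gria2, Gria4, Cnih2 and Cnih3. The share of all genes under this looser cut was not counted, so the 5 have no background. The log2 changes were negative for 9 of 10 genes (Grip1, near 0, was 0.037 under cyclic loess scaling), beside 52.3% of all genes tested. The median of the 10 was -0.16, against -0.0073 over all genes. The arrays did not overlap for 6 genes, all lower, beside 16.5% of all genes in either direction, a share not counted by direction. Cacng8 was among these 6, but its dimmer probe set had the opposite sign, at 0.11 ± 0.08 (limma adjusted p = 0.702 over all probe sets). Gria1 read 11.18, 11.13 and 11.39 on the KA arrays at 14 d, against 11.40, 11.45 and 11.54 in controls. Its highest KA array fell just short of the lowest control, and the log2 change was -0.23 ± 0.09 (adjusted p = 0.251). Gria2 read 9.93, 9.72 and 10.10 on KA arrays and 10.14, 10.13 and 10.21 in controls, a log2 change of -0.24 ± 0.10 (adjusted p = 0.307). Gria4, at 8.16, 8.22 and 8.19 on KA arrays and 8.42, 8.36 and 8.39 in controls, had the tightest groups, with a log2 change of -0.20 ± 0.09 (adjusted p = 0.333). The remaining values ran from -0.20 for Cnih2 to 0.23 for Cnih3 (adjusted p = 0.354 and 0.386).

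The same KA arrays at 14 d differed from their controls in glial markers. The summed level of 6 microglial markers spanned 10.74 to 10.88 on KA arrays and 9.64 to 9.75 in controls, with 5 of 6 higher by the test. Of 8 astrocyte markers 4 were higher, and the summed level spanned 13.43 to 13.70 on KA arrays and 13.03 to 13.14 in controls. Among 10 neuronal markers, Syt1 fell by 0.34 and 9 did not pass, with summed levels of 13.37 to 13.69 on KA arrays and 13.59 to 13.72 in controls. For CA pyramidal cells, whose dendrites are rich in AMPA receptors, 1 of 6 markers fell (Fibcd1, by 0.96), and the summed level was 10.24 to 10.46 on KA arrays and 10.52 to 10.58 in controls. Of 8 interneuron markers 1 fell and 7 did not pass, with overlapping sums of 11.451 to 11.834 on KA arrays and 11.707 to 11.765 in controls. Of 6 dentate granule markers 1 rose, 1 fell and 4 did not pass. Their sums overlapped, at 9.85 to 10.21 on KA arrays and 9.99 to 10.30 in controls. The part of these shifts in the receptor genes' values was not tested. At 8 h, Rbfox3 and Thy1 fell among the 10 neuronal markers (by 0.37 and 0.27), with overlapping summed levels of 13.53 to 13.69 on KA arrays and 13.58 to 13.67 in controls, and none of the 6 CA pyramidal markers passed. Members of the dentate granule list went both ways: Dsp and Calb1 fell by 1.97 and 0.43, C1ql2 rose by 0.34, and 3 of 6 did not pass, among them Prox1 at 0.35. Their summed level was 9.97 to 10.21 on KA arrays against 10.36 to 10.61 in controls. Glial markers also moved on the KA arrays at 8 h. Among 6 microglial markers P2ry12, Tmem119 and Csf1r fell, by 1.56, 0.57 and 0.29, and the summed level was 8.96 to 9.15 on KA arrays and 9.21 to 9.39 in controls. Of 8 astrocyte markers Gfap and Sox9 rose, by 1.02 and 1.13, and the summed level reached 13.23 on KA arrays and 12.99 in controls, with no overlap. Of 6 oligodendrocyte markers Mog and Cnp fell, by 0.69 and 0.29, with overlapping sums of 11.94 to 12.18 on KA arrays and 12.02 to 12.24 in controls. Of 3 oligodendrocyte precursor markers 1 rose and 1 fell, with overlapping sums of 9.19 to 9.35 on KA arrays and 9.30 to 9.43 in controls. The part of these markers in the values at 8 h was not tested either.

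The change of Cacng3 differed between the times. Its level of 8.32, 8.15 and 7.99 on the KA arrays at 14 d overlapped the controls' 8.39, 8.30 and 8.31, a log2 change of -0.18 ± 0.11 (adjusted p = 0.568). The change at 14 d minus the change at 8 h was -1.02 ± 0.15 (adjusted p = 0.000747), and 5.52% of all genes passed this test. The other 9 genes did not pass it, with values from -0.35 ± 0.15 for Cnih3 (adjusted p = 0.21) to 0.31 ± 0.12 for Gria4 (adjusted p = 0.179). Gria1 and Gria2 had nearly the same log2 change at both times, and the intervals of the difference ran from -0.26 to 0.27 and from -0.37 to 0.24.

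Between the 14 d and the 8 h controls, none of the 10 genes passed the test, beside 1.80% of all genes. In limma 3 had an unadjusted p under 0.05, a looser cut for which the share of all genes was not counted. All 10 log2 differences were positive (Gria4, near 0, was -0.0040 under cyclic loess scaling), while 43.7% of all genes tested were negative. The median of the 10 was 0.14, against 0.0201 over all genes. The arrays did not overlap for 6 genes, all higher at 14 d, beside 25.1% of all genes in either direction, a share not counted by direction. Cacng3 had the greatest difference, at 0.34 ± 0.11 (adjusted p = 0.124), followed by Cacng8 at 0.28 ± 0.08 (adjusted p = 0.109) and Cacng2 at 0.24 ± 0.11 (adjusted p = 0.321). For Gria1, Gria2 and Cacng8, a dimmer probe set gave the opposite sign, none past the threshold. The KA arrays at 8 h stood above the 14 d controls for Cacng3 as well, with 8.67 as their lowest value and 8.39 as the highest of those controls. Cell markers also differed between these controls. Among 6 microglial markers, Cx3cr1 and P2ry12 were higher at 14 d, by 0.93 and 0.58, and the summed level was 9.64 to 9.75 in 14 d controls and 9.21 to 9.39 in 8 h controls. The astrocyte sum was 13.03 to 13.14 in 14 d controls and 12.94 to 12.99 in 8 h controls, with none of 8 markers called. Of 6 dentate granule markers Dsp was lower at 14 d (-0.99 on the log2 scale), and none of the 10 neuronal markers passed. The part of these markers in the receptor genes' differences was not tested.

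The wider machinery of the AMPA receptor was read from 43 further genes in 4 lists, of which 37 were tested and 6 were not analysed here. At 8 h, 6 rose, 4 fell and 27 did not pass, beside 7.92% higher and 9.55% lower over all genes tested, with a median log2 change of -0.06. Among 13 other auxiliary and binding proteins, 3 rose. Nptx2, a secreted pentraxin that clusters AMPA receptors and is induced by activity, rose 16.9-fold (log2 change 4.08 ± 0.33, adjusted p = 6.6e-07). Nrn1, which promotes neurite growth and has been found with AMPA receptors, rose 2.20-fold (adjusted p = 0.000518), and Gsg1l, an auxiliary subunit that dampens the channel, rose 2.05-fold (adjusted p = 0.000129). In the same list Shisa7 fell 1.39-fold (adjusted p = 0.00312), as did the TARP gene Cacng5, 1.43-fold (adjusted p = 0.021).

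Of 13 scaffold and trafficking genes at 8 h, Arc, which drives the removal of AMPA receptors from the synapse, rose 12.3-fold (log2 change 3.61 ± 0.24, adjusted p = 5.85e-08) and Dlg1, a scaffold for Gria1, rose 1.41-fold (adjusted p = 0.00794). The other 11 did not pass, among them the Grip1 relative Grip2 and Pick1. Of 5 receptor assembly genes, Cpt1c fell 1.25-fold (adjusted p = 0.0155) and Porcn fell 1.21-fold (adjusted p = 0.0408). Of 6 kinase and RNA editing genes, the kinase Fyn rose 1.21-fold (adjusted p = 0.0399) and 5 did not pass, including Adarb1, the enzyme that edits Gria2. Single arrays decided some of these calls. Fyn was lost without any of the 6 arrays at 8 h or without control 14 d replicate 1 or 2 (adjusted p = 0.0528 to 0.161). Porcn was lost without control 8 h replicate 2 or 3, KA 8 h replicate 1 or 3 or control 14 d replicate 1 (adjusted p = 0.0536 to 0.177). Cacng5 was lost without control 8 h replicate 1 or 2 or KA 8 h replicate 1 or 3 (adjusted p = 0.0829 to 0.0932). Cpt1c was lost without control 8 h replicate 2 or KA 8 h replicate 3 (adjusted p = 0.0866 and 0.0551). Processing choices ended some of these calls too. Fyn came to 0.14 on the log2 scale with its probe sets averaged (adjusted p = 0.274), against 0.27, and missed the threshold with median centring (0.0658). Porcn missed it under cyclic loess (adjusted p = 0.0605) and with only the 8 h groups fitted (0.0562). Without the third array of each group, Cpt1c, Fyn and Porcn all missed it (adjusted p = 0.0801, 0.12 and 0.219).

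**Figure D5:**
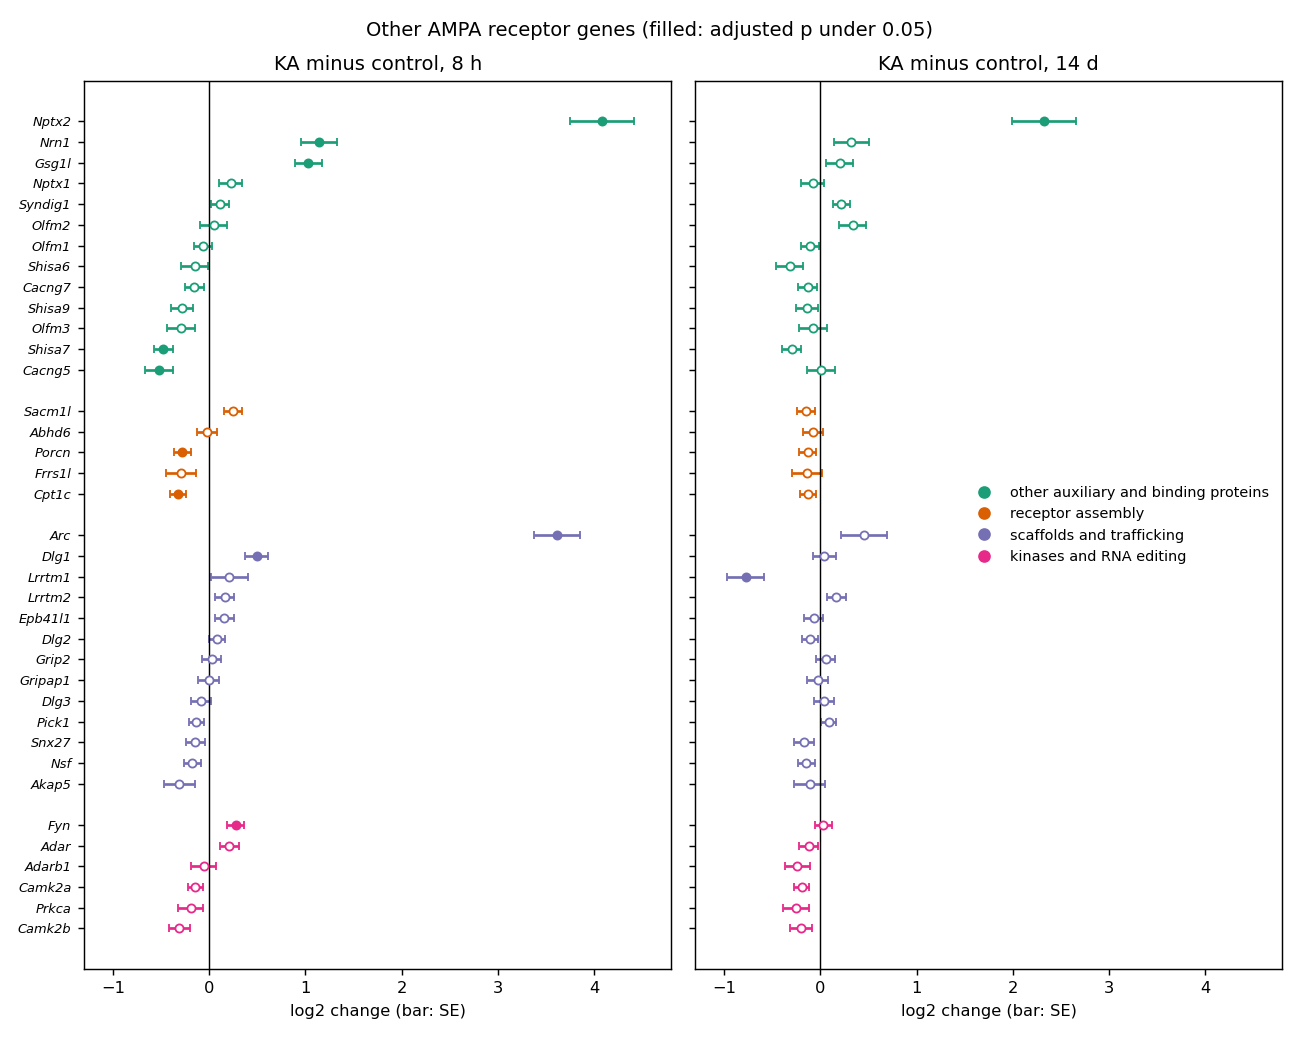
Log2 change, KA minus control, with its SE (x axis) of the 37 other AMPA receptor genes tested (y axis, grouped in 4 lists by colour and sorted within each by the change at 8 h) at 8 h and at 14 d; filled points had an adjusted p under 0.05 over all genes. Nptx2 lies at 4.08 at 8 h and 2.32 at 14 d, and Arc at 3.61 at 8 h.

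At 14 d, Nptx2 was still higher, 5.00-fold (log2 change 2.32 ± 0.33, adjusted p = 0.000714), and Lrrtm1, a synaptic organiser that holds AMPA receptors, fell 1.71-fold (adjusted p = 0.043), while 35 of 37 did not pass, beside 2.56% changed over all genes tested. The Lrrtm1 call was lost without any of 9 arrays, those being all but KA 8 h replicates 2 and 3 and KA 14 d replicate 3 (adjusted p = 0.0544 to 0.183). It was also lost with no filter (adjusted p = 0.0625), with probe sets averaged (0.0587) or each tested (0.0544), in a fit of the 14 d arrays alone (0.0913) and under median centring (0.0511). The change differed between the times for 4 of the 37, beside 5.52% of all genes. It was lower at 14 d than at 8 h for Arc (-3.16 ± 0.34, adjusted p = 3e-05), Nptx2 (-1.76 ± 0.47, adjusted p = 0.039), Lrrtm1 (-0.98 ± 0.27, adjusted p = 0.0459) and Gsg1l (-0.83 ± 0.20, adjusted p = 0.0246). Between controls, 3 of 37 passed, beside 1.80% of all genes. Arc was 3.54-fold higher at 14 d than at 8 h (adjusted p = 0.000996), Abhd6, whose product limits receptor delivery, 1.35-fold higher (adjusted p = 0.0404) and Cacng5 1.51-fold lower (adjusted p = 0.0484). The calls for Abhd6 and Cacng5 were lost without control 8 h replicate 1 or 2, any control at 14 d, KA 8 h replicate 1 or KA 14 d replicate 1 (adjusted p = 0.0521 to 0.241). With probe sets averaged, Abhd6 came to 0.26 on the log2 scale (adjusted p = 0.322), against 0.44, and Cacng5 to -0.37 (adjusted p = 0.104), against -0.60. Abhd6 was also lost with median centring and without the third arrays (adjusted p = 0.0574 and 0.0625), and Cacng5 with no filter and with each probe set tested (0.0593 and 0.0561).

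Genes whose profile over the 12 arrays lay nearest to each subunit gene were found by the root mean square (RMS) difference of log2 values, each gene centred on its own mean. For Gria4 they were Nmt1 (RMS 0.07), Coa3 (0.07) and Vps25 (0.07), beside an RMS of 0.23 for Gria4 itself. For Gria3 they were Ube2q1 (0.03), Nelfb (0.03) and Snd1 (0.04), beside 0.16 for Gria3. Gria2 was nearest to Map2k4 (0.03), Mapk10 (0.05) and Kctd13 (0.05), and Gria1 to Ryr2 (0.05), Nrip3 (0.06) and Fkbp3 (0.06). Among the 10 receptor genes, the nearest pair was Gria1 and Gria2, with an RMS difference of 0.05, and Gria1 and Cnih2 followed at 0.06. These are descriptions over 12 arrays that share their group differences, and small RMS values are easier to reach for genes that vary little.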

How the data were processed

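The deposited table holds log2 intensities for 45141 probe sets on 12 arrays, 104 of them array controls. The authors amplified 5 ng of RNA in 22 cycles and labelled 8 µg of cDNA, per the labels' protocols, and the submitters' processing notes name RMA and affy without version or role. The scale is not stated, and the log2 unit rests on the values (2.63 to 13.25) and on RMA. Array annotation from an older release gave 1 symbol to 28898 probe sets, several to 551 and none to 15588. RefSeq tables (GRCm38.p6) gave chromosomes and promoters, of which 1 is not reported here.

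For each gene the probe set with the highest mean was used. Genes above the array's 30th percentile on at least 3 arrays were kept. A limma model (version 3.58.1, R 4.3.3) gave each of the 4 groups a mean over the 12 arrays, with 8 residual degrees of freedom and eBayes. Benjamini-Hochberg adjustment of the two-sided p-values ran over 13853 genes. Probe sets were fitted likewise, all together. A summed level is the log2 of the summed intensities of a list. Background is the mean of control probe sets with at least 18 G or C. The number of arrays limits the precision. The fit was tried on simulated data with noise independent between arrays, unlike the correlated deviations of same-numbered arrays given below. That trial does not bear on the calls here.

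The members, lists and tests were chosen with earlier results of these data known. All 10 members were named, of each other list up to 3 genes called each way by smallest adjusted p, and 3 like genes per subunit. Markers and genes beyond this were picked by value. Groups share replicate numbers, and the labels do not say that these pair samples. Deviations of same-numbered arrays correlated at 0.155, 0.138 and 0.413 at 8 h, all above the bound of 0.1. At 14 d they correlated at 0.164, 0.068 and 0.463, so a block was read as a pairing at 8 h only. The block fit over all arrays let arrays of both times share a block, and a further fit took the arrays of each time alone. Alternatives covered the filter, probe sets, scaling, groups fitted, eBayes trend, array weights, threshold, sex chromosomes, the block and left-out arrays.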

Additional observations from a re-analysis of the deposited data

Results flagged for a closer look

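For 5 genes the change after KA differed between 14 d and 8 h by a test of the difference itself (limma, adjusted over 13853 genes). The change at 14 d minus that at 8 h was -1.02 for Cacng3, -0.83 for Gsg1l, -1.76 for Nptx2, -3.16 for Arc and -0.98 for Lrrtm1, on the log2 scale. Cacng3 and Arc passed under every alternative tried. The controls of both times enter these differences. The 14 d controls minus the 8 h controls were 1.82 for Arc (limma adjusted p = 0.000996) and 0.34 for Cacng3 (0.124). They were 0.19 for Nptx2, 0.10 for Lrrtm1 and -0.03 for Gsg1l, none of which passed. Single arrays that stand apart from their group of 3 were not tested for.

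For Gsg1l the difference was lost without control 8 h replicate 1 or 2, KA 8 h replicate 1 or 3 or control 14 d replicate 1 or 2 (adjusted p = 0.0558 to 0.0725). For Nptx2 it was lost without any of the 9 arrays at 8 h and of the 14 d controls (adjusted p = 0.0552 to 0.0935). For Lrrtm1 it was lost without any array other than KA 8 h replicate 2 and KA 14 d replicate 3 (adjusted p = 0.0618 to 0.108). The Lrrtm1 difference was also lost with no filter (adjusted p = 0.0643), with probe sets averaged (0.0557) or each tested (0.0512) and with median centring (0.0598), and the Nptx2 difference with no filter (0.0593).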

How the results depend on the processing

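Of the 10 receptor genes, the number changed at 8 h stayed between 3 and 8 over the alternatives, against 4 as reported. It was 8 with array weights (a fit whose weights did not fully converge, and which called 23.8% of all genes). It was 7 with the replicate block, both over all arrays (22.6% of all genes) and over the 8 h arrays alone (22.9%), the second chosen after seeing the data. Leaving out 1 array at a time gave 3 to 6 genes at 8 h. It left 0 at 14 d and 0 between controls, and 1 gene whose change differed between the times. At 14 d array weights called 5 genes (beside 15.2% of all genes) and the replicate block 0. Between controls, array weights called 3 genes (beside 9.64%) and leaving out the third array of each group called 1, Cacng3. The block changed no other call of the receptor genes. The change of Gria3 at 8 h also missed an adjusted p of 0.01 and the threshold of 0.05 with the third arrays left out.

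Small values changed sign, none past the threshold. Cacng2 at 8 h was -0.027 with probe sets averaged and -0.019 to 0.16 over single arrays left out. At 14 d it was 0.024 without the third arrays and -0.10 to 0.070 over single arrays. Grip1 at 14 d was 0.037 under cyclic loess, 0.15 with array weights and -0.081 to 0.10 over single arrays. The difference of changes of Gria1 was -0.0066 with probe sets averaged, -0.011 with array weights, -0.0095 without the third arrays and -0.073 to 0.062 over single arrays. That of Gria2 was 0.028 with probe sets averaged and -0.15 to 0.036 over single arrays, and that of Cnih2 was -0.020 to 0.12. Between controls, Gria2 was -0.14 with probe sets averaged, and Gria4 was -0.0040 under cyclic loess and -0.042 to 0.099 over single arrays. Within arrays at 14 d, Gria2 minus Gria1 changed by 0.056 with probe sets averaged and by -0.045 to 0.031 over single arrays, Gria2 minus Gria4 by -0.13 to 0.072 and Cacng3 minus Cacng8 by -0.12 to 0.067.

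Over all genes, the count changed at 8 h, 2420 of 13853 (17.5%), was 1352 at the stricter adjusted p of 0.01. When each probe set was tested, 3673 of 22392 probe sets passed (16.4%), a count in other units. At 14 d, 354 became 2099 with array weights, 599 with the replicate block, 170 at 0.01, and 196 and 212 once control 14 d replicates 2 and 3 were left out in turn, or 222 when KA 14 d replicate 1 was. The difference of changes, 764, became 2168 with weights, 1214 with the block, 346 at 0.01 and 508 without control 14 d replicate 2. Between controls, 249 became 1336 with weights, 570 with the block, 543 with only those groups, 64 at 0.01 and 85 to 421 without single arrays. At 8 h, cyclic loess called 1399 genes higher and 1215 lower, against 1097 and 1323. Cyclic loess split the control calls into 188 higher and 185 lower at 14 d, against 155 and 94. The cause of these shifts was not tested. Within arrays, Gria2 minus Gria4 at 8 h moved with the choice of probe sets, as given above.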
